A study of Mus musculus with 31 samples.

Results

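Immunoglobulin variable genes were followed through 180 probes of a spotted mouse array, out of 23040 probes in all. A probe belonged to the set if the platform table gave it exactly 1 gene name and that name began with Igkv or Ighv. The rule found 109 Igkv probes and 71 Ighv probes under 68 gene names, and measured values played no part in it. Another 83 probes carried several names of which at least 1 began with Igkv or Ighv, and these were not used.

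RNA came from 31 strains of the BXD/TyJ recombinant inbred panel, bred from C57BL/6J and DBA/2J parents, with 1 array per strain. The groups were BXD33-42, with 7 strains from a later breeding of the panel, and BXD1-32, with 24 strains of the earlier breeding. That division is background knowledge and is not written in the labels. All mice were males aged 8 weeks, and RNA of 3 mice was pooled for each strain. Each pool carried the red dye, and the same C57BL/6J reference in the green dye was its partner on every array, with no dye swap. Values are log ratios, most likely log2 of strain over C57BL/6J, since the strains were in the red channel and the authors used limma, in which a log ratio is log2 of red over green. Neither base nor direction is stated in the sources used here. Sample titles name kidney while source and tissue fields name whole brain. A ratio carries no level, so the tissue could not be checked by the abundance of markers.

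A variable gene, or V gene, encodes most of the antigen-binding part of an antibody chain, Ighv genes for the heavy chain and Igkv genes for the kappa light chain. Developing B cells join 1 of many V genes to shorter segments, so different B cells transcribe different V genes. V genes of a subfamily are close in sequence, and a probe for one can bind transcripts of several. The counts below therefore treat probes singly, and a gene name is a label of the probe and does not show which transcript it bound. RefSeq (GRCm38.p6) placed the Igkv names on chromosome 6 and the Ighv names on chromosome 12. It listed 41 names (153 probes) as V segments and 27 names (27 probes) as V segment pseudogenes.

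Against C57BL/6J, the V gene probes leaned to low ratios. The mean ratio over the 31 strains passed the test for 89 probes that were lower in the strains and for 26 that were higher, while 65 did not pass (limma, adjusted p under 0.05 over all 23040 probes). These were 49.4% and 14.4% of the members. Over all probes of the table, 30.3% were called lower and 27.2% higher. The median of the mean ratios was -0.12 on the log2 scale for the members and -0.02 for all probes. Igkv and Ighv probes had much the same balance, with 53 lower and 14 higher among Igkv, and 36 lower and 12 higher among Ighv. With the probes of each name averaged first, 37 of 68 names were lower and 9 higher, beside 29.3% and 26.5% of the 15096 names in the table. Each strain had 1 array, so these p-values measure the spread between strains and arrays together. A peculiarity of the shared reference RNA would move every ratio alike and is not part of that spread. Neither it nor a dye effect can be told apart from a difference between the strains and C57BL/6J.

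The place of a probe on the array went with this lean. Probe numbers run through a layout of 480 places that repeats 48 times, and 171 of the 180 members stood at places 169 to 240, which are 15% of the places. Of the 200 probes named for T cell receptor V genes, 189 stood there too. The same band held 2938 probes named for no antibody or T cell receptor gene, or carrying no name. Members in the band had a mean ratio of -0.15, and those 2938 probes also had a mean of -0.15, with 1356 of them lower and 394 higher. The 1155 probes of the band with a single unrelated gene name had a mean of -0.14. All probes outside the band had a mean of 0.02. Print place as a whole accounted for 36.7% of the variance of the mean ratio over all probes. That share covers all places, and those farthest from 0 were not in the band. They were places 457 to 472, where probes without an antibody or T cell receptor name averaged between 0.78 and 1.16. What lay behind the low ratios of the band was not tested.

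When the mean of all probes at the same place was subtracted on each array, 48 members were lower than C57BL/6J and 52 were higher, or 26.7% and 28.9%. Over all probes the shares were 26.2% lower and 28.3% higher, so the members then stood close to the table as a whole. Subtracting only the mean of probes without an antibody or T cell receptor name, an alternative added after the data were seen, left 47 lower and 50 higher. The 9 members outside the band were divided as deposited, with 5 lower and 4 higher.

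Averaged over the 180 probes, the V gene ratio was below 0 in every strain, between -0.28 in BXD2 and -0.004 in BXD38. Other probes at the same print places averaged between -0.26 and -0.04 in the strains. The members minus these other probes came to -0.004 ± 0.043 (SD, n = 31 strains), from -0.088 in BXD13 to 0.085 in BXD23. Members were below the others in 17 of 31 strains and above them in the rest.

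In groups of strains, members averaged -0.09 ± 0.07 in BXD33-42 (SD, n = 7), -0.11 ± 0.09 in BXD15-32 (n = 14) and -0.23 ± 0.04 in BXD1-14 (n = 10). The other probes at the same places averaged -0.10, -0.12 and -0.20 in the same groups. The ranges overlapped for members, since the lowest BXD33-42 strain stood at -0.19 and the highest BXD1-14 strain at -0.16.

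Tested within each range, 15 members were lower than C57BL/6J and 11 higher in BXD33-42, where 6.03% of all probes were lower and 8.69% higher. In BXD15-32, 54 were lower and 21 higher, beside 20.5% and 20.6% of all probes. In BXD1-14, 74 were lower and 12 higher, beside 21.1% and 21.4%. The lean to low ratios was thus widest in count in BXD1-14, where the other probes at the same places were lowest too.

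Over the 31 strains, the member mean and the mean of the other probes at the same places had a Pearson r of 0.902 and a Spearman rho of 0.908. Without the 2 strains farthest from the median r was 0.888. The Igkv mean and the Ighv mean, which come from clusters on different chromosomes, had an r of 0.821 over the same arrays. After removal of print position this r was 0.211, and 0.0587 without the 2 farthest strains. The member mean also had an r of 0.826 with the first principal component of the arrays, which held 20.6% of the variance over all probes. These points share arrays, dyes and print places, and the values are given as a description.

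The 7 members named first had the highest means among probes called higher with a ratio above 0 in at least 28 strains. Igkv4-75 is a pseudogene in the kappa cluster, and its probe 214 ranged from -0.19 over a median of 0.96 to 2.38 in the 31 strains. It was above 0 in 30 of 31 strains, and its mean was 0.87 ± 0.12 (SE, limma adjusted p = 1.42e-07). Ighv6-6 is a heavy chain V segment, and its probe 11729 ranged from -0.09 over a median of 0.47 to 1.51. Its mean was 0.72 ± 0.10 (SE, limma adjusted p = 6.21e-08), with 29 of 31 strains above 0. Probe 12692 of the heavy chain segment Ighv5-9 was narrower, from -0.16 over a median of 0.52 to 0.90, with a mean of 0.46 ± 0.04 (SE, limma adjusted p = 1.15e-09). The other 4 had means between 0.32 and 0.35, namely Igkv2-105 probe 3835, Ighv1-47 probe 2130, Igkv4-68 probe 17993 and Ighv5-9 probe 215. The values of all 7 reached below 0 in at least 1 strain. With print position removed all 7 were still called higher, and the mean of Igkv2-105 probe 3835, the only one of the 7 outside the band, moved to 0.19.

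At the low end 12 members had the lowest means among probes called lower with a ratio below 0 in at least 28 strains. The lowest was another Ighv6-6 probe, 4994, which ranged from -2.39 over a median of -0.97 to 0.22. Its mean was -1.11 ± 0.12 (SE, limma adjusted p = 1.41e-09), and 29 of 31 strains were below 0. Probe 6447 of Igkv4-53, a kappa V segment, ranged from -1.90 over a median of -0.73 to 0.17. It was below 0 in 30 strains, with a mean of -0.82 ± 0.10 (SE, limma adjusted p = 8.81e-09). The kappa pseudogenes Igkv13-57-1 and Igkv13-71-1 had means of -0.77 ± 0.10 and -0.71 ± 0.10 (SE, probes 8836 and 4036). Ighv5-9 was present here too, with a mean of -0.72 ± 0.09 for probe 3529. The other 7 had means between -0.61 and -0.50, and belonged to Igkv4-72 (probes 12176 and 7888), Igkv4-70, Ighv6-6 (probe 19375), Igkv6-14, Igkv5-39 and Igkv13-82.

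All 12 were still called lower with print position removed. Their means then lay between -0.96 for Ighv6-6 probe 4994 and -0.24 for Igkv4-72 probe 12176. Both probes of Igkv4-72 stood at places of low ratios, where other probes averaged -0.37 (probe 12176) and -0.31 (probe 7888). These 19 probes at both ends were chosen for large means of 1 sign, so their calls after this subtraction are no independent support. The mean of Igkv4-72 probe 7888 moved to -0.28 and that of Igkv13-82 probe 10734 also to -0.28.

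Probes of the same name varied in their ratios, some names more than others. Of the 68 names, 56 had 1 probe, Igkv16-104 had 2, and 11 had at least 3, which together made up 122 probes. In 6 of these 11 names some probes were called higher and others lower. Over the 1137 pairs of probes with the same name the mean r across strains was 0.108, and 8.80% of the pairs had an r above 0.5. Ighv6-6 alone supplied 561 of the 1137 pairs, with a mean r of 0.183, and 75 of the 100 pairs above 0.5. The values for pairs with the same name therefore rest largely on Ighv6-6 and do not describe the names in general. Over the 14973 pairs with different names the mean r was 0.0442, with 5.04% above 0.5. Over all pairs of probes of the table the mean r was 0.00145, with 2.76% above 0.5. With print position removed, the mean was 0.0618 for pairs with the same name and 0.00332 for pairs with different names.

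Ighv6-6 had the most probes, 34, and their means ran from -1.11 to 0.72. Of these, 21 were called lower and 2 higher. Averaged over its probes, Ighv6-6 ranged from -0.49 in BXD20 to 0.17 in BXD38, with a mean of -0.18 ± 0.03 (SE, limma adjusted p = 9.5e-05). The SD among the 34 probes within a strain was between 0.355 and 0.960, so in every strain the probes differed from each other by more than the size of that mean. Their mean pairwise r was 0.183 (0.113 with print position removed), and 433 of the 561 pairs had an r above 0. The closest pair, probes 2611 and 10293, had an r of 0.802, and the most opposed pair, probes 9353 and 11729, had an r of -0.696.

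Ighv5-9 had 25 probes, with 10 called lower and 7 higher, means from -0.91 to 0.46 and a mean pairwise r of 0.0176. The 17 probes of Igkv4-72 had 10 lower and 2 higher, with a mean r of 0.0424. Igkv4-68 and Igkv4-70 had 10 probes each, and calls fell evenly, 2 lower and 2 higher for Igkv4-68 and 3 lower and 3 higher for Igkv4-70. The probes of Ighv9-4, a heavy chain V segment, were more alike: 4 of 7 were called lower and none higher, and their mean pairwise r was 0.326, or 0.283 with print position removed. Averaged, Ighv9-4 ranged from -0.91 in BXD20 to 0.29 in BXD38, with a mean of -0.32 ± 0.06 (SE, limma adjusted p = 2.3e-05). The smaller names Igkv4-57-1, Igkv4-53, Igkv5-39, Igkv4-55 and Igkv6-14 had 3 to 5 probes, and their mean r lay between -0.169 and 0.0807. All 11 names but Igkv4-68 were called lower when their probes were averaged, beside 29.3% of the 15096 names in the table. These averages kept print position and were not tested without it. Other probes at the places of the 180 members averaged -0.14.

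The 27 pseudogene probes, all in the kappa cluster, included the highest mean of the kappa probes. Of the 27, 14 were called lower and 4 higher, beside 75 lower and 22 higher among the 153 probes named for V segments. The highest was Igkv4-75 at 0.87 and the lowest Igkv13-57-1 at -0.77. The closest pair among them was Igkv13-74-1 (probe 2613) with Igkv15-102 (probe 8369), at an r of 0.894, and 0.847 with print position removed.

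Strain values in 2 levels were sought because a recombinant inbred strain carries the allele of either parent at each locus. For each probe the strains were divided at the point that removed most of the sum of squares, with at least 5 strains on each side. Members reached 80% of the sum of squares in 2 cases, or 1.11%, beside 1.87% of all probes. They were Ighv6-6 probe 11729 at 91.3% and Ighv5-9 probe 12206 at 80.7%. The next were Igkv4-90 probe 12174 at 79.4%, Igkv4-75 probe 214 at 79.1% and Igkv4-55 probe 6925 at 78.9%, just below that limit.

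Ighv6-6 probe 11729 lay between 0.98 and 1.51 in 15 strains and between -0.09 and 0.47 in 16 strains, with a gap of 0.51 between them. In BXD33-42 the probe ranged from -0.003 over a median of 1.14 to 1.24, and its mean was 0.98 there and 0.64 in BXD1-32. That difference did not pass the test (limma adjusted p = 0.527). The high strains were 6 of 7 in BXD33-42, where BXD33 was the low one, 9 of 14 in BXD15-32 and 0 of 10 in BXD1-14. The highest BXD1-14 strain was at 0.38. The strain number therefore went with the level, and the probe had an r of 0.788 with the first principal component of the arrays. With that component removed, the best division accounted for 67.1% of the sum of squares, and with print position removed for 88.8%. What lay behind the levels was not tested.

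Other V gene probes shared this pattern across names and chromosomes. By absolute correlation with probe 11729, the closest members were Igkv4-75 probe 214 (r = 0.905), Ighv5-9 probe 12206 (r = -0.819), Igkv4-68 probe 10317 (r = 0.797), Ighv9-4 probe 10740 (r = 0.766) and Igkv13-56-1 probe 5014 (r = 0.741), all over 31 strains. Of these names, 3 lie in the kappa cluster on chromosome 6. Among probes with 1 other gene name, the closest were Spns2 on chromosome 11 (r = 0.921), Igsf8 on chromosome 1 (r = 0.907), Tcrb-V8.2 (r = 0.906), Cenpp on chromosome 13 (r = 0.906) and Ubfd1 on chromosome 7 (r = -0.899). Spns2 encodes a sphingosine-1-phosphate transporter and Cenpp a protein of the centromere. Of the 10 closest, RefSeq placed 1 on chromosome 6 (Gpnmb) and 0 on chromosome 12, where it places Ighv6-6. Tcrb-V8.2 was matched to no chromosome, so it is not counted in either.

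Igkv4-75 probe 214 was at 0.96 or above in 16 strains and at 0.69 or below in 15. Its high strains were those of Ighv6-6 probe 11729 with BXD13 added. In BXD33-42 it ranged from 0.16 over a median of 1.38 to 1.85, in BXD15-32 from -0.19 over 1.14 to 2.38, and in BXD1-14 from 0.14 over 0.34 to 0.97. Ighv5-9 probe 12206 ran the other way and was at -0.65 or below in 12 strains. All 10 BXD1-14 strains were in its upper level, as was BXD33 alone among BXD33-42.

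The widest member was picked out after the values were seen. Ighv6-6 probe 9353 had an SD of 1.83 over strains, where the median SD of the members was 0.360 and that of all probes 0.374. In BXD33-42 it ranged from -1.86 over a median of 0.72 to 2.63, in BXD15-32 from -2.47 over -0.44 to 2.05, and in BXD1-14 from 0.22 over 2.58 to 3.69. It was above 0 in all 10 BXD1-14 strains and in 21 of 31 in all, and its mean of 0.57 did not pass the test (limma adjusted p = 0.110). Its correlation with the other 33 Ighv6-6 probes was above 0 for 4 of them and averaged -0.233. The probes closest to it were Smchd1 (r = 0.960), Rps4l (r = 0.952), Tial1 (r = 0.949) and Rfx5 (r = 0.943), which RefSeq places on chromosomes 17, 6, 7 and 3. Smchd1 encodes a chromatin protein of X inactivation, Tial1 an RNA-binding protein and Rfx5 a factor for class II histocompatibility genes. Bag3, a co-chaperone gene on chromosome 7 like Tial1, was among the 10 closest with an r of 0.879.

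Igkv4-68 probe 8984, the next widest and also chosen after its values were seen, had an SD of 1.17 and stood outside the band. It ranged from -2.35 in BXD33 to 3.16 in BXD18. Its mean of -0.52 was called lower (limma adjusted p = 0.0246), but with print position removed the mean was -0.12 and did not pass (adjusted p = 0.553). The other probes at its place averaged -0.40.

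Between BXD33-42 and BXD1-32 no member passed the test (limma, adjusted p under 0.05). An unadjusted p under 0.05 was reached by 25 members, 16 higher and 9 lower in BXD33-42, and by 2904 of all 23040 probes. Over all probes the adjusted test called 0% higher and 0.00868% lower. With arrays weighted by their quality in limma, 4 members passed, 2 in each direction, beside 0.165% higher and 0.339% lower over all probes. In that weighted fit Ighv6-6 probe 10776 was higher in BXD33-42 by 1.06 ± 0.26 (SE, limma adjusted p = 0.0463). It ranged from -1.10 over a median of -0.12 to 0.68 in BXD33-42, against -2.10 over -1.13 to 0.22 in BXD1-32. Ighv5-9 probe 14600 was higher by 1.13 ± 0.28 (SE, limma adjusted p = 0.0459), with group means of -0.14 in BXD33-42 and -1.14 in BXD1-32. Ighv6-6 probe 12717 and Ighv5-9 probe 12206 were lower in BXD33-42, by differences of -1.19 and -0.88. The groups overlapped for all 4 probes. Thus 2 probes of 1 name again differed in direction, for both Ighv6-6 and Ighv5-9.

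Genes beside the V clusters were compared with the members by gene order in RefSeq. Of 30 measured genes nearest to the kappa cluster on chromosome 6, 10 had an absolute r above 0.5 with the Igkv mean, or 33.3%, beside 15.0% of all 15096 names. Hpgds, a prostaglandin D synthase, had an r of 0.664 and Atoh1, a neural transcription factor, 0.636. Mrpl35, a mitochondrial ribosomal protein, had an r of -0.672 and Eif2ak3, a stress kinase, -0.621. Both signs thus occurred among the neighbours. Near the heavy chain cluster on chromosome 12, 7 of 24 genes or 29.2% had an absolute r above 0.5 with the Ighv mean, beside 21.6% of all names. Crip1 had the largest of these, with an r of -0.778. With the most 2-level member, Ighv6-6 probe 11729, 8 of the 24 or 33.3% had an absolute r above 0.5, beside 18.2% of all names. The Igkv mean, the Ighv mean and this probe kept print position and the first principal component. With that component the member mean had an r of 0.826 and probe 11729 an r of 0.788. The shares of neighbours were not tested without either, and what lay behind them was not tested. Neighbouring V genes within the clusters had a mean r of 0.0709 over 59 adjacent Igkv pairs, beside 0.0561 over all Igkv pairs, and 0.285 over 7 adjacent Ighv pairs, beside 0.152.

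Markers of cells that transcribe V genes were set beside the members. Of 25 probes for B cell and plasma cell genes, 8 were called lower and 1 higher, with a median of -0.04, where 30.3% of all probes were lower and 27.2% higher. With print position removed, 5 of the 25 were lower and 3 higher. Cd79a, part of the B cell receptor, was lower (-0.37 ± 0.08, SE, limma adjusted p = 8.82e-05). So were Cd79b (-0.23), Vpreb3 (-0.36), Fcer2a (-0.22) and Igll1 (-0.31 for probe 4039 and -0.43 for probe 21811). Blk, a B cell kinase, was the only probe of the list called higher (0.27 ± 0.05, SE, limma adjusted p = 7.02e-05). Jchain and Mzb1, genes of antibody-secreting cells, had means of 0.07 and 0.04 and did not pass. Sdc1 and Tnfrsf17 of the same list, at 0.12 and 0.15, did not pass either. Xbp1 (-0.44, limma adjusted p = 0.00409) and Prdm1 (-0.16, limma adjusted p = 0.0397) were lower. With print position removed, Prdm1 was still lower (-0.34), as were Cd79a, Vpreb3 and Igll1 probe 21811, and Ms4a1 was lower too (-0.24). Sdc1 (0.17), Pou2af1 (0.23) and Blk (0.20) were then higher. Xbp1, Cd79b, Fcer2a and Igll1 probe 4039 did not pass. The mean of the list ran from -0.20 to 0.06 over the strains of BXD33-42 and from -0.26 to 0.11 over those of BXD1-32, and its r with the member mean was -0.112 over 31 strains. The probes of the list had a mean pairwise r of 0.0104, so the list mean does not follow a pattern common to them. Singly, their r with the member mean ran from -0.715 for Mzb1 to 0.713 for Ms4a1. In RNA of a whole tissue, fewer cells of a type and less RNA per cell cannot be told apart.

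Other antibody genes were named outside the rule. Of 62 such probes, 30 were called lower and 9 higher, with a median of -0.11, beside the same 30.3% and 27.2% of all probes. With print position removed, 21 were lower and 17 higher. Older names of V genes such as Igh-VS107 and Igk-V23 were carried by 46 of the 62. Of those 46, 39 stood in the same print band, and 22 of the 46 were lower and 5 higher as deposited, against 14 lower and 11 higher with print position removed. Igkc, the kappa constant gene, was higher (0.36 ± 0.13, SE, limma adjusted p = 0.0153). Of the heavy chain constant genes, Igha was higher (0.26), while Ighg3 (-0.43) and Ighg2c (-0.18) were lower. Probes of Ighm were called both ways, from -0.46 for probe 15117 to 0.15 for probe 4019. So were those of Ighe, at -0.60 for probe 13163 and 0.13 for probe 3058. The 200 T cell receptor V probes had 84 lower and 23 higher with a median of -0.11. With print position removed they had 51 lower and 56 higher with a median of 0.03, so their lean to low ratios went with print place as that of the members did. Of 7 T cell probes, 3 were lower and 1 higher, and with print position removed 3 were lower and 0 higher. Of 11 kidney probes, 6 were higher and 0 lower with a median of 0.30, and of 15 brain probes, 3 were higher and 8 lower with a median of -0.15. With print position removed, the kidney probes had 5 higher and 1 lower, and the brain probes 2 higher and 5 lower. The part of other cells in the V gene ratios was not tested.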

How the data were processed

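RNA ratios of 31 strains were analysed as the authors deposited them. The deposited log2 ratios (base likely, as stated above) were made with R 2.0.0 and limma per the submitters' processing notes, whose steps are not given in the sources used here. The sorted values of all 31 columns were identical, with a median of 0.0127 and an SD of 0.602, so the arrays had been made alike by quantile normalization. Signal over background is unknown, and the number of arrays limits the precision. Of the probes, 16874 had 1 gene name, 134 several and 6032 none, and all 68 member names were matched to RefSeq.

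Means over strains were tested against 0, and BXD33-42 against BXD1-32, with limma 3.58.1 in R 4.3.3 on all probes (lmFit, eBayes, 2-sided, Benjamini-Hochberg at 0.05), and the scripts were tested on simulated data. Print place is the remainder of the probe number in steps of 480. Members, lists and tests were chosen with earlier results of these data known. Probes named singly were the 12 highest and 12 lowest called means with the same sign in at least 28 strains (7 and 12 qualified), the 10 most 2-level members, the 5 smallest p between groups, and the 5 members and 10 other names closest to the most 2-level one. Alternatives were equal or estimated array weights, robust variances, a minimum log2 change of 0.2 (treat), removal of print position, of the first principal component, of the 10% of probes with the smallest spread or of BXD15 and BXD38, averaging by name, and ranges of strains.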

Additional observations from a re-analysis of the deposited data

Results flagged for a closer look

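In the 7 strains of BXD33-42, 34 sets of values (named single members and the member means) were checked for a lone extreme strain by Dixon's ratio, and 3 stood out. Chance alone flags about 1 in 20 sets that were not chosen by their values, and the probes are not independent of each other. Probes 11729 and 6925 had been named for 2 levels and probe 8984 for its wide spread. That rate therefore does not apply to them. In all 3 the lone strain was BXD33. Ighv6-6 probe 11729 was at -0.00304 in BXD33 and between 1 and 1.24 in the other strains of the group. Igkv4-68 probe 8984 was at -2.35 in BXD33 and between -0.0571 and 1.2 in the others. Igkv4-55 probe 6925 was at -0.493 in BXD33 and between 0.135 and 0.373 in the others. Over 31 strains, probes 8984 and 6925 had an r of 0.714 and 0.739 with probe 11729. The value of the first principal component was -0.132 in BXD33 and between -0.040 and 0.270 in the others. The part of that component was not tested.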

How the results depend on the processing

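The counts of members against C57BL/6J, 26 higher and 89 lower, moved by over 1.5 times under several settings. A minimum log2 change of 0.2 left 7 higher and 32 lower, beside 2397 higher and 2394 lower of all 23040 probes. Removal of print position gave 52 higher and 48 lower, and removal by probes without antibody or T cell receptor names gave 50 and 47. Averaging by name gave 9 higher and 37 lower of 68 names. BXD1-14 alone gave 12 higher, BXD15-32 alone 54 lower, and BXD33-42 alone 11 higher and 15 lower, where fewer strains were used. The count between BXD33-42 and BXD1-32 was 0, and 4 with array weights. The mean pairwise r of members, 0.0487, was 0.00744 with print position removed, 0.00794 when removed by the other probes and 0.0158 with the first principal component removed. Apart from the settings whose construction is named (fewer names, fewer strains, a minimum change), the cause was not tested. Of the 19 named high and low probes, chosen for large means of 1 sign, none reversed under the 9 settings run, and 10 of 19 stayed called in all of them. Calls were lost by 7 probes with BXD33-42 alone, by 1 with BXD1-14 alone and by 1 with the minimum change. No paired analysis was possible because each strain has 1 array.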
